A study of Ovis aries with 6 samples.

Results

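The miRNAs described here are the sheep entries numbered 23, 24 or 27 in fetal rumen. They were taken by name: an ID had to read oar-miR- followed by one of those numbers, with any letter or arm. Of 1253 listed miRNAs, 3 met this rule, namely oar-miR-23a, oar-miR-23b and oar-miR-27a. No listed ID carried the number 24, so miR-24 is represented below only by newly predicted entries with related sequence. Rumen came from male Hu sheep fetuses, all labelled wild type, with 3 libraries from the control group (CON, ewes on normal feeding) and 3 from the undernourished group (UN, titled TR in the labels). Per the study's methods, the UN ewes were held to 30% of their baseline intake over 15 d, starting at gestation day 115, and fetuses were collected when the restriction ended, whereas the labels state day 115 for every ewe. No pooling of fetuses is described, and whether any fetuses shared a ewe is not given in the sources used here. The samples are labelled rumen with no cell type named, and no sorting of cells is described, so fewer cells of a type cannot be told apart from less of a miRNA per cell.

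miR-23, miR-27 and miR-24 are known in vertebrates as neighbours: a single primary transcript carries one of each, and a duplicated copy elsewhere in the genome carries a second trio, which is why the letters a and b exist. A miRNA recognises its target mRNAs mainly through its seed, bases 2 to 8, so members of the a and b copies with one seed are expected to address largely the same mRNAs. In mouse and human cells miR-23 and miR-27 are known from blood vessel growth, miR-27 also from the restraint of adipocyte formation through PPARG, and miR-24 from the repression of cell cycle genes including E2F2. In the RefSeq annotation of the ARS-UI_Ramb_v3.0 assembly, all 3 entries matched a gene by synonym. MIR23A and MIR27A lie beside each other with no annotated gene between them, and ZSWIM4 follows MIR27A. MIR23B lies on another chromosome, within the span of AOPEP, a protein coding gene.

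The listed sequences are given because they decide which reads can be told apart. Capitals mark the seed, and sequences run 5′ to 3′ as the study listed them.
oar-miR-23a: aUCACAUUgccagggauuucca
oar-miR-23b: aUCACAUUgccagggauu
novel_miR_524: aUCACAUUgccagggauuaccacg
oar-miR-27a: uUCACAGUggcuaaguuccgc
novel_miR_484: uUCACAGUggcuaaguucugca
novel_miR_261: uGGCUCAGuucagcaggaac

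oar-miR-23a and oar-miR-23b had the seed UCACAUU and oar-miR-27a the seed UCACAGU, which differ by the single substitution U7G (the base of oar-miR-23a first, counted from the 5′ end). oar-miR-23b was listed with 18 bases only, and all 18 are the first 18 bases of oar-miR-23a, which has 22. The same 18 bases begin novel_miR_524, a newly predicted entry of 24 bases, which differs from oar-miR-23a over their 22 aligned bases by U19A alone. A read ending at base 18 therefore carries nothing that assigns it to one of the 3 entries, and how the authors divided such reads is not given in the sources used here. The pair oar-miR-27a and novel_miR_484 differ likewise at base 19 alone, by C19U over 21 aligned bases. Neither novel_miR_524 nor novel_miR_484 was compared with a database. Whether either of them comes from a b copy was therefore not determined, and the level of oar-miR-23b need not be that of the b copy. novel_miR_261 has the seed GGCUCAG, that of vertebrate miR-24 from general knowledge, which was not compared with a database. novel_miR_788 repeats its 20 bases and the same number of reads in every library, so the 2 entries count the same reads and only novel_miR_261 is described. A further 4 entries (novel_miR_160, novel_miR_435, novel_miR_466 and novel_miR_719) were related by seed or by a shared run of at least 12 bases, and each had 16 to 48 reads over the 6 libraries together.

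Levels are the authors' reads of a miRNA per 1000000 assigned reads (RPM), not divided by length, and the whole reads behind them were recovered. The libraries held 18584326 to 35555822 assigned reads. A large share of these was oar-miR-143, known from smooth muscle, at 29.5% in CON replicate 2 and 50.0% in CON replicate 3 as the extremes, and the RPM of all other miRNAs together falls by as much as that share rises. CON replicate 2 was also the highest library for most of the marker lists of other cell types given at the end, and values without it are given there. The 3 members together took 2.92% ± 0.17 of the reads in the CON group and 2.93% ± 0.49 in the UN group (SD, n = 3 each), between 2.47% in UN replicate 3 and 3.44% in UN replicate 1.

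oar-miR-27a held nearly all of those reads. It stood at 26572, 27860 and 25152 RPM in CON replicates 1 to 3 and at 31078, 25672 and 22153 RPM in UN replicates 1 to 3, on 517758 to 894295 reads. Both the highest and the lowest library were in the UN group, and the CON values lay between them. It ranked 6th to 8th among all entries in every library.

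oar-miR-23a, encoded next to it, stood far lower. Its values were 953, 1288 and 898 RPM for CON replicates 1 to 3 and 1232, 1226 and 957 RPM for UN replicates 1 to 3, on 23082 to 31946 reads, with ranks from 52 to 61. CON replicate 2 was the highest of all, so the groups overlapped. Within a library there were 20.9 to 28.0 reads of oar-miR-27a for each read of oar-miR-23a. Whether the 2 sequences were captured with equal efficiency was not tested, so this ratio describes reads and not molecules.

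oar-miR-23b, the 18-base entry, had 1464, 1811 and 1484 RPM across CON replicates 1 to 3 and 2041, 1895 and 1550 RPM across UN replicates 1 to 3. UN replicates 1 and 2 were above every CON library, while UN replicate 3 lay below CON replicate 2. Its lowest library was above the highest library of oar-miR-23a, and its ranks ran from 38 to 47.

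**Figure D1:**
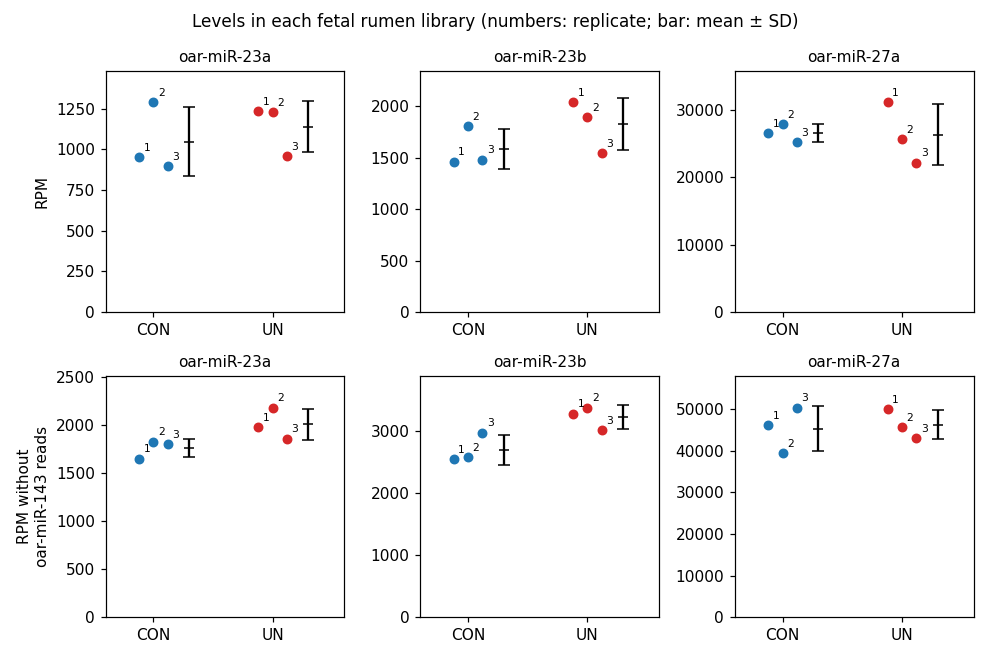
Level of each member in every library, as RPM (top) and per 1000000 reads once oar-miR-143 is left out (bottom). Points are libraries numbered by replicate, and bars give the mean and SD of 3. In the top row the groups overlap for every member, from 898 to 1288 RPM for oar-miR-23a, whereas in the bottom row each UN point of oar-miR-23a and oar-miR-23b is above each CON point. On the bottom scale 3.00% of the 567 miRNAs tested had every UN library above every CON library, and 10.2% had every UN library below. oar-miR-23a and oar-miR-23b may share reads.

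The order of levels was the same in all libraries except for one pair of neighbours. oar-miR-27a came first, followed by novel_miR_484 at 4004 to 5347 RPM, then by oar-miR-23b and novel_miR_261, then by novel_miR_524 at 1060 to 1410 RPM and last by oar-miR-23a. novel_miR_261, with the miR-24 seed, had 1456, 1823 and 1608 RPM across CON and 1778, 1400 and 1507 RPM across UN replicates 1 to 3. It lay above oar-miR-23b in CON replicates 2 and 3 and below it in the other libraries, so this pair was not separated by the spread between fetuses. novel_miR_524 lay above oar-miR-23a in each library, although their ranges overlapped across libraries.

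Libraries differed by more than counting error. For oar-miR-23a, counting error alone would give a coefficient of variation of 0.56% to 0.66%, while the 6 libraries varied by 15.9%. The corresponding values were 0.44% to 0.55% against 14.1% for oar-miR-23b and 0.11% to 0.14% against 11.3% for oar-miR-27a. With 1 library per fetus, a spread between fetuses cannot be told apart from one of library preparation. From the lowest to the highest library, oar-miR-23a spanned 1.43-fold, oar-miR-27a 1.40-fold and oar-miR-23b 1.39-fold.

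The make-up of each seed varied little from fetus to fetus. Of the reads with the miR-23 seed, oar-miR-23b took 40.6% to 43.6%, novel_miR_524 29.5% to 31.2% and oar-miR-23a 26.1% to 28.9% in a library. In every library oar-miR-23b had more reads than either of the longer entries but fewer than their sum, which ran from 49212 to 69643 reads, so it did not simply gather all reads that begin with its 18 bases. Of the reads with the miR-27 seed, oar-miR-27a took 84.1% to 86.3% and novel_miR_484 nearly all of the rest. The lead of the named entry over its sister at base 19 was therefore unlike for the 2 seeds. There were 5.27 to 6.28 reads of oar-miR-27a per read of novel_miR_484 but 0.84 to 0.95 reads of oar-miR-23a per read of novel_miR_524, and this contrast between the seeds, 5.69-fold to 7.41-fold, was present in each of the 6 libraries. Reads that were listed under oar-miR-23b could belong to either side and are not in the latter ratio.

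**Figure D2:**
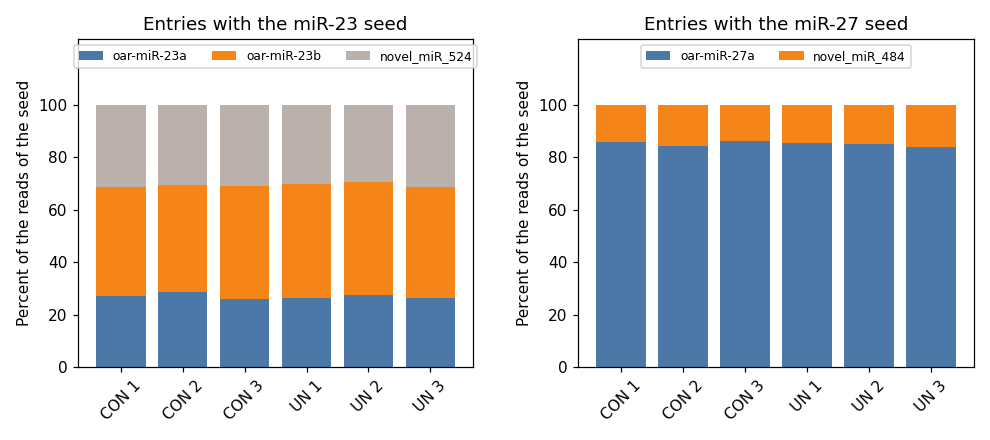
Percent of the reads of a seed held by each entry, in every library (CON 1 to 3, UN 1 to 3), for the miR-23 seed (left) and the miR-27 seed (right). The bars are nearly alike from library to library, with oar-miR-27a at 84.1% to 86.3% on the right and no entry above 43.6% on the left. novel_miR_435, with 22 reads over all libraries, is too small to draw.

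The comparison of UN with CON asks whether maternal undernutrition shifted these miRNAs in the fetal rumen. None of the 3 members passed it. On log2(RPM + 1) with limma, over the 567 miRNAs kept by a filter on low reads, oar-miR-23a went from 1047 ± 211 RPM in CON to 1138 ± 157 RPM in UN (SD, n = 3 each), a log2 fold change of 0.13 (standard error 0.22, adjusted p = 0.95 from limma, 95% interval -0.34 to 0.60). oar-miR-23b went from 1586 ± 195 RPM to 1829 ± 252 RPM, a log2 fold change of 0.20 (standard error 0.20, adjusted p = 0.85, 95% interval -0.23 to 0.64). oar-miR-27a stood at 26528 ± 1355 RPM and 26301 ± 4496 RPM, a log2 fold change of -0.025 (standard error 0.17, adjusted p = 1.00, 95% interval -0.40 to 0.35). On the linear scale these intervals reach from 0.79-fold to 1.51-fold for oar-miR-23a, from 0.85-fold to 1.55-fold for oar-miR-23b and from 0.76-fold to 1.27-fold for oar-miR-27a, so a larger change than this lay outside them and a smaller one in either direction could not be told from none.

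Over all 567 miRNAs limma likewise placed 0 up (0%) and 0 down (0%) past the adjusted threshold of 0.05. It gave 29 an unadjusted p below 0.05, which is 5.11%, and no member was among them. Their unadjusted p from limma was 0.56 for oar-miR-23a, 0.33 for oar-miR-23b and 0.89 for oar-miR-27a. edgeR on the recovered reads called 1 up and 0 down and DESeq2 2 up and 2 down at the adjusted threshold, none of them a member. All 3 members had overlapping groups in RPM, where every UN library lay above every CON library for 1.06% of the 567 and below for 12.3%.

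The relatives by sequence gave like values. novel_miR_524 had a log2 fold change of 0.14 (standard error 0.20, adjusted p = 0.92 from limma) and novel_miR_484 one of 0.046 (adjusted p = 1.00). The mean of novel_miR_261 was 1629 ± 184 RPM for CON against 1562 ± 195 RPM for UN (SD over 3 libraries), a log2 fold change of -0.062 (standard error 0.20, adjusted p = 1.00), which turned to 0.11 with TMM scaling. Summed over its entries, the miR-23 seed averaged 3805 ± 568 RPM for CON against 4252 ± 541 RPM for UN, and the miR-27 seed 31068 ± 1936 RPM against 30987 ± 5084 RPM (SD over 3 libraries), with overlapping groups for both. The 4 sparse relatives were removed by the filter. Among them novel_miR_435, with the miR-27 seed, had 0, 2 and 3 reads in the CON and 9, 5 and 3 reads in the UN libraries.

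The scaling decided whether the groups of the miR-23 entries overlapped. The median log2 fold change of all 567 miRNAs was -0.12 in RPM and 0.011 after TMM scaling, which sets libraries against each other by the bulk of their miRNAs. Relative to that median, oar-miR-23a lay 0.25 higher and oar-miR-23b 0.33 higher, above 88.9% and 92.8% of the miRNAs tested, and oar-miR-27a lay 0.098 higher, so that its direction turned from the -0.025 of RPM. Per 1000000 reads once oar-miR-143 is left out, oar-miR-23a stood at 1651, 1827 and 1798 in the CON and 1977, 2181 and 1859 in the UN libraries. On this scale each UN library was above each CON library. The same held for oar-miR-23b, at 2536, 2569 and 2969 in CON and 3274, 3371 and 3011 in UN, but not for oar-miR-27a, at 46028, 39513 and 50329 in CON and 49868, 45665 and 43016 in UN. Among all 567 miRNAs, 3.00% had every UN library above every CON library on this scale and 10.2% had every UN library below. With TMM scaling these shares were 6.00% and 4.06%, and oar-miR-23a and oar-miR-23b again lay above. novel_miR_524 and novel_miR_484 did so on both scales as well, the latter without oar-miR-143 by only 8015 in its lowest UN library against 8013 in its highest CON library, and novel_miR_261 on neither. The entries of the miR-23 seed may share reads, so that they are not separate observations.

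The tests on these scales did not pass the adjusted threshold either. Without the reads of oar-miR-143 the log2 fold change was 0.19 for oar-miR-23a and 0.26 for oar-miR-23b (adjusted p = 0.71 for both from limma). With TMM scaling these were 0.30 and 0.37 (adjusted p = 0.80 for both), and the unadjusted p of oar-miR-23b was 0.029 in the fit across all miRNAs. That limma fit gave 28 of the 567 miRNAs an unadjusted p under 0.05. The 95% intervals with TMM scaling ran from -0.027 to 0.62 for oar-miR-23a and from 0.046 to 0.69 for oar-miR-23b. They are not adjusted for the number of miRNAs tested.

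**Figure D3:**
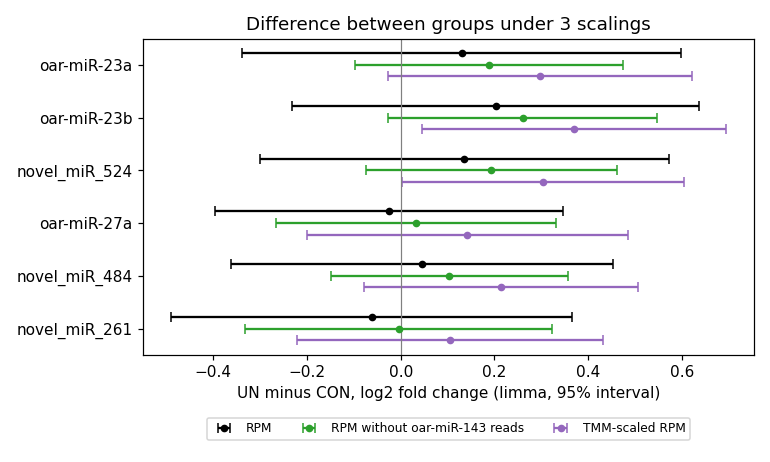
Log2 fold change of UN against CON with its 95% interval from limma, for the members and their 3 most abundant relatives, under RPM (black), RPM without the reads of oar-miR-143 (green) and TMM-scaled RPM (purple). Points of oar-miR-23b move from 0.20 to 0.26 and 0.37 and those of oar-miR-27a from -0.025 to 0.033 and 0.14, and no entry passed an adjusted p of 0.05 under any of the 3. With TMM scaling the unadjusted intervals of oar-miR-23b (0.046 to 0.69) and novel_miR_524 (0.0024 to 0.60) lie above 0. All other intervals drawn include 0.

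Ratios within a library do not depend on the scaling. oar-miR-27a per oar-miR-23a was 25.8 ± 3.65 in CON and 23.1 ± 2.14 in UN (SD, n = 3 each), a difference in log2 of -0.16 (exact two-sided permutation p = 0.3). CON replicate 2, at 21.6, lay among the UN libraries. oar-miR-23a per oar-miR-23b was 0.656 ± 0.053 in CON and 0.623 ± 0.022 in UN (log2 difference -0.072, exact permutation p = 0.4). oar-miR-27a per novel_miR_484 was 5.88 ± 0.45 in CON and 5.59 ± 0.28 in UN (log2 difference -0.071, exact permutation p = 0.4). oar-miR-23a per novel_miR_261 was 0.640 ± 0.075 in CON and 0.735 ± 0.126 in UN (log2 difference 0.19, exact permutation p = 0.5), with the highest value, 0.88, in UN replicate 2. Groups overlapped in all 4 ratios, each adjusted p over the 4 was 0.5, and 3 against 3 libraries cannot give an exact two-sided p below 0.1.

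**Figure D4:**
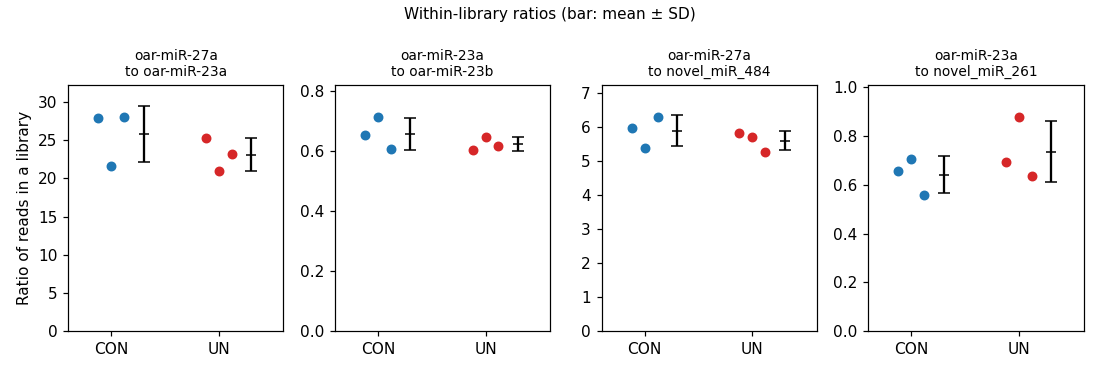
Ratio of the reads of 2 entries within each library, for 4 pairs, with CON in blue and UN in red. Points are libraries and bars the mean and SD of 3. The groups overlap in every panel, and the ratio of oar-miR-27a to oar-miR-23a runs from 20.9 to 28.0.

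How far the members varied together was described by a measure of likeness. Likeness was measured as the SD over the 6 libraries of the log2 ratio between 2 entries, small where they rise and fall in step, among the entries that averaged at least 100 RPM. The entries of the miR-23 seed were close to one another, with an SD of 0.090 between oar-miR-23a and oar-miR-23b and of 0.073 and 0.054 from these to novel_miR_524. oar-miR-27a had an SD of 0.18 to its genomic neighbour oar-miR-23a and of 0.16 to oar-miR-23b, which placed it 43rd and 9th of the 150 others in likeness to these. In its own order oar-miR-23b came 19th, oar-miR-23a 28th and novel_miR_484, at 0.094, 4th. novel_miR_484, with the miR-27 seed, came 6th for oar-miR-23a (0.12) and 5th for oar-miR-23b (0.12). The median over the 150 others was 0.25 for oar-miR-23a, 0.27 for oar-miR-23b and 0.24 for oar-miR-27a. The 3 entries most like oar-miR-23a were oar-miR-26b (0.059), novel_miR_524 and oar-miR-181a (0.084). Those most like oar-miR-23b were novel_miR_524, oar-miR-26a (0.059) and oar-miR-23a. Those most like oar-miR-27a were novel_miR_412 (0.060), novel_miR_676 (0.066) and novel_miR_242 (0.067), the last 2 of which have 1 sequence. All points share the 6 libraries, and entries with 1 seed may share reads, so these values describe the libraries only.

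Lists of entries assigned to smooth and striated muscle, endothelium, epithelium, blood and immune cells and nerve, and 1 entry assigned to liver, were set beside the members. Most of these entries are newly predicted, among them those for endothelium and liver and all for nerve. The assignment of the newly predicted entries was not compared with a database. All 22 entries of 7 lists were above 0 in some library, and the groups overlapped in the summed level of each list. In the nerve list novel_miR_422, novel_miR_949 and novel_miR_178 had identical fold changes and intervals, as had novel_miR_547 and novel_miR_190. Such entries may repeat a sequence, so a list sum may count the same reads repeatedly and is no tissue level. Smooth muscle entries summed to 303592 to 508605 RPM in CON and 383628 to 493547 RPM in UN, and their lowest library, CON replicate 2, was the highest for oar-miR-23a. The entry for endothelium stood at 5844 to 8759 RPM in CON and 4999 to 6995 RPM in UN, also highest in CON replicate 2, and the epithelial entries at 53651 to 60243 RPM and 37194 to 53817 RPM. The striated muscle entries summed to 4429 to 7942 RPM in CON and 3970 to 7381 RPM in UN. CON replicate 2 was the highest of all libraries for endothelium, epithelium, the liver entry (148 RPM against 6.63 and 12.8 RPM in the other CON libraries and 25.5 to 71.5 RPM in UN), blood and immune cells (358 RPM against 210.2 to 314 RPM in the other libraries) and nerve (480.1 RPM against 156 to 352 RPM). If this library is left out, each UN library was above both CON libraries in RPM for oar-miR-23a and oar-miR-23b. CON replicate 2 was the highest CON library for both entries, so leaving it out could only lessen such an overlap. For oar-miR-23a the margin was only 957 RPM in UN replicate 3 against 953 RPM in CON replicate 1. The share of all miRNAs that separate with so few libraries was not determined, so this is a description only. The log2 fold changes were then 0.29 for oar-miR-23a and 0.30 for oar-miR-23b (adjusted p = 0.80 and 0.79 from limma), and oar-miR-27a stood at 0.011 (adjusted p = 1.00). The part of these marker entries in the levels of the members was not tested.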

How the data were processed

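Small RNAs of fetal rumen were sequenced in 3 CON and 3 UN libraries per the labels. The study's methods state that reads were single-end and aligned with Bowtie2 to the Sheep Reference Genome 3.0 and that known and new miRNAs were listed. The labels name another library kit than the methods, and the series title names jejunum and ileum where each sample is labelled rumen, which was followed. Which Bowtie2 version, miRBase release and prediction tool were used is not given in the sources used here.

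The deposited values, named TPM by the authors, are RPM: they sum to 1000000 per library. All values above 0 (100%) were whole multiples of a library's smallest value within 0.001 reads. Sequences came from the study's supplementary list. limma 3.58.1 in R 4.3.3 (trend, no covariate) tested log2(RPM + 1) after edgeR's filterByExpr on recovered reads (minimum count 10, minimum total 15), with Benjamini-Hochberg adjustment. edgeR 4.0.16 and DESeq2 1.42.0 on recovered reads, other pseudocounts, scalings and left-out libraries were alternatives. Named entries were the members, all relatives by sequence and the 3 entries most like each member. Markers were fixed by ID. The members and lists were chosen with earlier results of these data known. The fit was also run on simulated reads, but the outcome is not given here and nothing above rests on it. No libraries of a group were duplicates (chi-square per degree of freedom at least 437).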

Additional observations from a re-analysis of the deposited data

How the results depend on the processing

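oar-miR-23a, oar-miR-23b and novel_miR_524 kept their direction and stayed short of an adjusted p of 0.05 in all 14 alternatives. Not all of these could have changed a direction. Leaving out the filter cannot alter a fold change, and pseudocounts of 0.1 and 5 left that of oar-miR-23a at 0.13. All 4 ratios kept their direction in their alternatives, reads summed over a seed and the replicate block included. The block could not change a direction, since each replicate number is equally present in both groups. The ratios of oar-miR-23a to oar-miR-23b and of oar-miR-27a to novel_miR_484 have no value with summed seeds, since both sides then hold the same entries. Adjusted p ran from 0.71 to 1.00 for oar-miR-23a and oar-miR-23b and from 0.88 to 1.00 for oar-miR-27a. The lowest unadjusted p was 0.017 for oar-miR-23b and 0.042 for oar-miR-23a, both with DESeq2. DESeq2 gave 29 of all 567 miRNAs an unadjusted p under 0.05. The log2 fold change of oar-miR-27a, -0.025, turned to 0.14 with TMM scaling, 0.033 without the reads of oar-miR-143, 0.15 with edgeR and 0.14 with DESeq2. That of novel_miR_261 and novel_miR_788, -0.062, turned to 0.11 with TMM scaling, 0.10 with edgeR and 0.10 with DESeq2. None of these passed an adjusted p of 0.05, and the cause was not tested.

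With 1 library left out, log2 fold changes ran from 0.029 to 0.29 for oar-miR-23a, 0.12 to 0.32 for oar-miR-23b, -0.15 to 0.092 for oar-miR-27a (0.011 if CON replicate 2 and 0.092 if UN replicate 3 is left out), -0.16 to 0.022 for novel_miR_261 and novel_miR_788 (0.022 if CON replicate 2 and 0.013 if UN replicate 2 is left out) and -0.053 to 0.14 for novel_miR_484 (-0.041 if CON replicate 3 and -0.053 if UN replicate 1 is left out). The ratio differences ran from -0.28 to -0.086 for oar-miR-27a to oar-miR-23a, -0.13 to -0.012 for oar-miR-23a to oar-miR-23b, -0.13 to -0.022 for oar-miR-27a to novel_miR_484 and 0.059 to 0.29 for oar-miR-23a to novel_miR_261.

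Over all miRNAs, 0 up became 1 with TMM scaling, 1 without oar-miR-143, 1 with edgeR and 2 with DESeq2, and 0 down became 2 with DESeq2. With 1 library left out, 0 to 2 were up and 0 to 1 down, with 2 up and 1 down if CON replicate 2 and 1 down if CON replicate 3 was dropped.

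Whether the replicate numbers pair fetuses cannot be decided from so few libraries. Deviations of same-numbered libraries correlated at -0.072, 0.075 and 0.19, and those of differently numbered libraries from -0.20 to 0.17. With the replicate block limma again called 0 up and 0 down, with 37 in place of 29 at an unadjusted p under 0.05. The fold changes of the members (0.13, 0.20 and -0.025) cannot differ from those without it, since each replicate number is equally present in both groups.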

Other observations

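The doubling of novel_miR_261 and novel_miR_788 was no single case. Of 1029 distinct listed sequences, 118 stood under more than 1 entry, 342 entries in all, and in 48 of the 118 all entries had the same number of reads in every library.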
